A study of Homo sapiens with 6 samples.

Results

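Ubiquitin-conjugating (E2) enzymes are described here in MIA PaCa-2 cells, an established human pancreatic carcinoma line, with and without overexpression of the long noncoding RNA LINC00901. The members are all rows of the gene table that carry a single gene name starting with UBE2 and a further letter, leaving out 1 family gene. This gave 31 genes of 18268 rows. Of the 31, 28 reached the mean of at least 1 FPKM needed to be tested, and UBE2Q2L, UBE2QL1 and UBE2L5 did not. FPKM, the deposited unit, is the number of sequenced fragments scaled to gene length and library total. Another 4 rows join a UBE2 gene to a second gene (UBE2D2, UBE2F, UBE2V1 and UBE2W). They are not members, because their values cannot be assigned to 1 gene.

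The study sequenced total RNA from 3 libraries of vector control cells, which carried pCDH, and 3 libraries of LINC00901 overexpression cells. Both groups were cultured in DMEM with fetal bovine and horse serum. The labels do not say whether the replicates were separate cultures, nor whether each line was a clone or a pool, so the p-values reflect the spread among these libraries alone, which may be technical. LINC00901 was not itself analysed here, so its overexpression was not checked and the groups are taken as labelled.

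The depth behind the values is unknown. FPKM values summed to between 87162 and 88738 in the vector libraries and to between 127768 and 128538 in the overexpression libraries, and the median tested gene was higher by 0.27 log2 in the latter. Changes are therefore given both as deposited and with each library centred on its median, which lowers every difference by 0.21. Of 6 epithelial markers, 5 had a row of their own and summed to 94.4 to 110 FPKM in the vector and 85.5 to 112 FPKM in the overexpression libraries. KRT18 made up most of this, while CDH1 did not pass 0.08 FPKM and EPCAM did not pass 0.14 in any library, so these defining markers were all but absent. The 4 mesenchymal markers summed to 202 to 255 against 548 to 637 FPKM, nearly all of it VIM. Within the epithelial sum, KRT19 was higher in the overexpression libraries (2.22 to 5.92 against 22.89 to 25.02 FPKM). KRT18 was lower there (90.93 to 105.38 against 62.48 to 86.92 FPKM). The part of these differences in the results was not tested. The 5 fibroblast markers summed to 189 to 204 against 174 to 199 FPKM, mostly COL3A1, with DCN at or near 0. The 4 leukocyte markers summed to at most 0.48 FPKM in the vector and to 0.62 to 1.37 in the overexpression libraries, all of it CD14, with PTPRC and CD3E at 0 throughout, and the 3 endothelial markers together did not pass 0.64 FPKM.

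Ubiquitin is attached to proteins by a relay of enzymes. An E1 activates ubiquitin, an E2 takes it over as a thioester on a cysteine in its core domain, and an E3 ligase brings the loaded E2 to the substrate. The choice of E2 helps to set which chain is built, and a few E2s carry ubiquitin-like proteins such as NEDD8 or ISG15 in place of ubiquitin. In tumour cells these enzymes act in protein turnover, DNA repair, cell division and signalling.

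Most E2s hold the catalytic cysteine a short way after a run of histidine, proline and asparagine. In the GENCODE 29 coding sequences, 19 of the 31 members hold this run, and the next cysteine codon follows 10 codons on in 16 of them and 11 codons on in 3. The other 12 members, among them UBE2Q1, UBE2Z and UBE2V2, hold no such run. The stretch is shown for 7 genes that carry it and that changed in the same direction as deposited and after centring. Of these, 6 rose and UBE2U was lower, although UBE2U reached the filter for testing only through its vector values. The stretches show how far the 7 genes differ in sequence at the site they share. Capitals mark the codons of the run and the cysteine codon, read 5′ to 3′ along the coding strand.
UBE2L6: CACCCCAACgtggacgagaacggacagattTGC
UBE2L3: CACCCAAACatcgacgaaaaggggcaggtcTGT
UBE2M: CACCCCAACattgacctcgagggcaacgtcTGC
UBE2S: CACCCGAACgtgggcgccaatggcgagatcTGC
UBE2R2: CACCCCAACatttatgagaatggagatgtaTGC
UBE2D1: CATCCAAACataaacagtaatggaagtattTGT
UBE2U: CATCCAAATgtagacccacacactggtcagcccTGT

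All positions of these stretches are on GRCh38, which is not the hg19 build of the deposited values, and all are coding exon sequence. The UBE2L6 stretch lies at chr11:57554489-57554521 on the minus strand, in exon 3, and that of UBE2L3 at chr22:21610959-21610991 on the plus strand, also in exon 3. That of UBE2D1 (chr10:58364795-58364827, plus strand) lies in exon 5. UBE2M (chr19:58556701-58556733, exon 4) and UBE2S (chr19:55404345-55404377, exon 3) are on the minus strand. The stretches of UBE2R2 (exons 2 to 3, from chr9:33886950-33900188) and UBE2U (exons 3 to 4, from chr1:64206847-64210767) are split by an intron, both on the plus strand.

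Of the 28 tested members, 12 were higher and 1 was lower in the overexpression libraries at an adjusted p of 0.05 (limma, adjusted over 9694 tested rows). That is 42.9% higher and 3.57% lower, where 37.4% of all tested rows were called higher and 11.9% lower, so neither share stood far from the background. The median difference of the members was 0.37 log2, against 0.27 for all tested rows. With centred libraries 9 members were higher and 4 lower, beside 24.0% and 19.2% of all tested rows. Of the 12, 9 members were also higher after centring, among them UBE2D1, UBE2L3, UBE2L6, UBE2M, UBE2Q1, UBE2R2, UBE2S and UBE2V2. With trends on transcript length and GC content removed, 11 were higher and 4 lower, beside 22.8% and 17.4% of rows, and with a trend on level removed too, 8 and 5, beside 18.0% and 18.3%. Every fit with such trends removed also centres the libraries on their medians. Those 9 members were higher and 1 member, UBE2U, was lower under both scalings. UBE2U reached the filter for testing only through its vector values. The groups did not overlap for 17 tested members, 14 higher and 3 lower, where 44.9% and 15.6% of all tested rows had such groups.

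**Figure D1:**
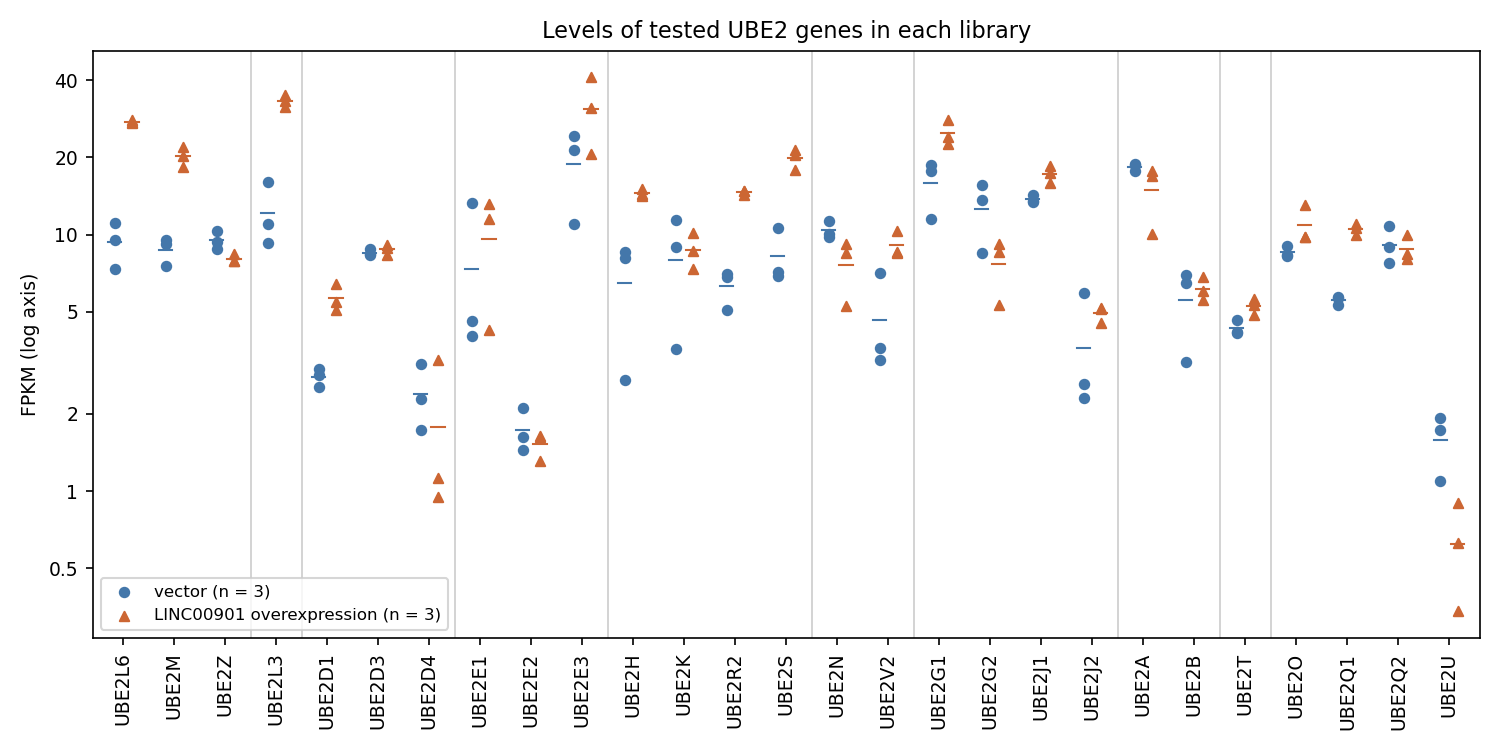
FPKM on a log axis for the tested UBE2 genes reported here, ordered by role, with grey lines between roles. Points are libraries (circles vector, triangles LINC00901 overexpression) and short lines are group means. The overexpression triangles of UBE2L6, UBE2L3, UBE2M, UBE2S and UBE2R2 lie close together, above all vector circles, while UBE2E1, UBE2H and UBE2K spread more than 3-fold within the vector group.

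**Figure D2:**
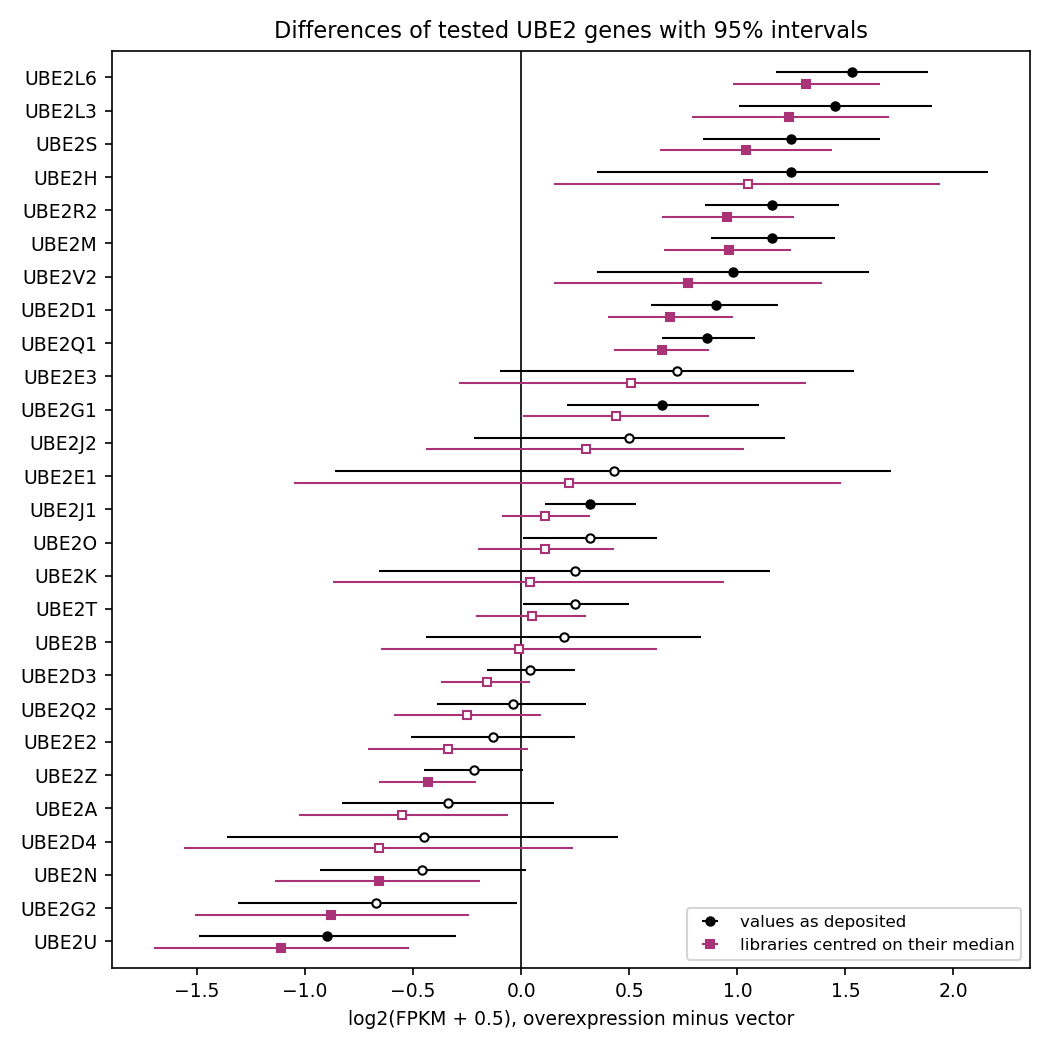
Difference between groups (overexpression minus vector, log2(FPKM + 0.5)) with its 95% limma interval for each tested UBE2 gene reported here, from the values as deposited (circles) and from median-centred libraries (squares). Filled symbols passed an adjusted p of 0.05. Of the genes plotted, UBE2L6 and UBE2L3 lie highest and UBE2U lowest under both scalings.

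Levels within the family spanned a wide range. By mean over the 6 libraries UBE2E3, UBE2L3 and UBE2G1 were highest, at 24.9, 22.7 and 20.4 FPKM, followed by UBE2L6 (18.5) and UBE2A (16.7). UBE2D4, UBE2E2 and UBE2U were the lowest tested, at 2.08, 1.62 and 1.10 FPKM. UBE2Q2L did not pass 0.61 FPKM, UBE2QL1 did not pass 0.16 and UBE2L5 did not pass 0.02 in any library. The 5 highest genes held 33.0% ± 4.64 (SD, n = 3) of the family's summed FPKM in the vector libraries and 38.6% ± 2.26 (SD, n = 3) in the overexpression libraries. These shares overlapped (exact permutation p = 0.2, two-sided).

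The E2s of ubiquitin-like proteins held the largest difference of the family, that of UBE2L6. UBE2L6 and UBE2M rose, and UBE2Z did not pass as deposited but passed as lower after centring. In bulk libraries such as these, fewer cells that express a gene and less of its RNA per cell cannot be told apart.

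UBE2L6 transfers ISG15, an interferon-induced modifier. It stood at 7.35, 9.54 and 11.15 FPKM in the vector group and at 27.27, 27.51 and 27.92 in the overexpression libraries. The overexpression values were nearly equal and all lay above the vector values. The difference was 1.53 ± 0.15 log2 (SE, limma adjusted p = 0.000378), 2.95-fold in the means, and 1.32 log2 after centring (limma adjusted p = 0.000815). UBE2L6 belongs to the shortest of 5 equal groups of genes by transcript length, whose median change was 0.60 log2, and to the highest by level, whose median was 0.54. With trends on length, GC content and level removed, the UBE2L6 difference was 0.76 log2 (limma adjusted p = 0.0074).

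UBE2M and UBE2F are the E2s of NEDD8, the modifier that activates cullin ligases. UBE2M stood at 9.17, 9.50 and 7.56 FPKM in the vector group and at 18.30, 20.35 and 21.89 in the overexpression libraries. No vector library came near the overexpression group. The difference was 1.16 ± 0.12 log2 (SE, limma adjusted p = 0.000478), and 0.96 after centring (limma adjusted p = 0.00152). UBE2M is a short, highly expressed gene. With length and GC content trends removed its difference was 0.52 log2 and still passed (limma adjusted p = 0.0136). With a trend on level removed too it was 0.25 log2 and no longer passed (limma adjusted p = 0.147). Of its 50-base words 10.7% occur in another gene, the pseudogene UBE2MP1. The joined row that holds UBE2F together with SCLY gave 2.76, 3.80 and 2.50 FPKM against 2.72, 2.36 and 2.86, and did not pass (limma adjusted p = 0.485).

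UBE2Z takes up FAT10 and ubiquitin from the E1 enzyme UBA6. It was measured at 8.78, 9.36 and 10.37 FPKM in the vector group and at 7.89, 8.39 and 7.89 in the overexpression libraries. The groups did not overlap, although the gap was narrow. The difference was -0.22 log2 as deposited (limma adjusted p = 0.0978) and -0.43 after centring (limma adjusted p = 0.0108), so this call rests on the scaling. With trends on length and GC content removed UBE2Z passed as lower too (-0.50 log2, limma adjusted p = 0.00518). That fit also centres the libraries, so it is not separate from the scaling.

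UBE2L3, also called UBCH7, works with HECT and RBR ligases, which form their own thioester with ubiquitin before passing it on. It rose from 16.08, 10.98 and 9.29 FPKM in the vector libraries to 33.15, 34.95 and 31.55 in the overexpression libraries. The lowest overexpression value was close to 2 times the highest vector value. Its difference of 1.45 ± 0.19 log2 (SE, limma adjusted p = 0.00112) ranked above 97.0% of tested genes or level with them, and was 1.24 after centring (limma adjusted p = 0.00283). With length, GC content and level trends removed it was 0.94 log2 (limma adjusted p = 0.0109). Of its 50-base words 7.96% occur in other genes, UBE2L5 among them, which was itself listed at or near 0.

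The UBE2D enzymes are broad chain initiators that serve many RING ligases. Of the 3 tested, only UBE2D1 rose, where 37.4% of all tested rows were called higher. It went from 2.55, 2.84 and 3.0 FPKM to 5.08, 5.48 and 6.40. All overexpression values of UBE2D1 lay above all vector values. The difference was 0.90 ± 0.12 log2 (SE, limma adjusted p = 0.00144), and 1.06 with length, GC content and level trends removed (limma adjusted p = 0.00293). UBE2D3 was nearly level, at 8.32, 8.40 and 8.82 FPKM against 8.35, 8.90 and 9.13. Its 95% interval ran from -0.16 to 0.25 log2 (limma adjusted p = 0.698), and the sign of its difference turned after centring (-0.16 log2). UBE2D4, of low level, stood at 1.73, 2.28 and 3.14 FPKM against 1.12, 0.95 and 3.25 (limma adjusted p = 0.354), and only without overexpression replicate 3 did it pass as lower (limma adjusted p = 0.0337). Of the 50-base words of UBE2D4, 14.4% occur in other genes. The row that joins UBE2D2 to CXXC5 had means of 8.24 ± 1.84 and 12.5 ± 0.577 FPKM (SD, n = 3), and passed as higher (limma adjusted p = 0.0219) but not after centring (limma adjusted p = 0.105).

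The UBE2E enzymes resemble UBE2D but carry an extended N-terminus, and 0 of 3 passed the limma test, also at an unadjusted p of 0.05. Of all tested rows, 37.4% were called higher and 11.9% lower at the adjusted threshold. UBE2E3 had the highest mean of the family, with 21.36, 10.96 and 24.27 FPKM in the vector and 41.02, 20.65 and 31.28 in the overexpression libraries. The groups overlapped, because overexpression replicate 2 lay below vector replicates 1 and 3. The difference of 0.72 log2 had an interval from -0.10 to 1.54 (limma adjusted p = 0.125). Of the 50-base words of UBE2E3, 10.2% occur in another gene, AC002524.1. UBE2E1 had the largest coefficient of variation of the tested members in the vector group (71.0%), at 4.61, 4.04 and 13.32 FPKM against 11.46, 4.24 and 13.20. High and low values occurred in both groups, and the interval of its difference ran from -0.86 to 1.71 log2. UBE2E2 stood at 1.73 ± 0.345 against 1.52 ± 0.183 FPKM (SD, n = 3).

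Among chain-elongating enzymes and the E2 of the CTLH ligase, 3 of 4 tested rose as deposited (UBE2H, UBE2R2 and UBE2S), where 37.4% of all tested rows did. After centring 2 of 4 did, beside 24.0% of rows. UBE2S extends Lys11-linked chains with the anaphase-promoting complex. Its values were 6.92, 7.14 and 10.63 FPKM in the vector libraries and 17.84, 21.39 and 20.51 in the overexpression libraries. Vector replicate 3 was the highest of its group and still far below the overexpression libraries. The UBE2S difference was 1.25 ± 0.17 log2 (SE, limma adjusted p = 0.00144), 1.04 after centring and 0.68 with length, GC content and level trends removed (limma adjusted p = 0.0171). Of its 50-base words 17.5% occur in other genes, the pseudogene UBE2SP1 among them.

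UBE2R2 is a paralogue of CDC34 and builds Lys48-linked chains with cullin ligases, the kind that sends proteins to the proteasome. It rose from 5.10, 7.00 and 6.83 FPKM to 14.78, 14.75 and 14.28. The overexpression values lay within a narrow band, well apart from the vector group. The difference was 1.16 ± 0.13 log2 (SE, limma adjusted p = 0.000674) and 0.95 after centring (limma adjusted p = 0.00178). UBE2R2 shares no 50-base word with transcripts of another gene.

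UBE2H, the E2 of the CTLH ligase, was measured at 8.12, 2.71 and 8.54 FPKM in the vector group and at 14.15, 15.08 and 14.39 in the overexpression libraries. Vector replicate 2 stood far below the other vector libraries. The difference was 1.25 ± 0.38 log2 (SE, limma adjusted p = 0.0311), but it did not pass after centring (1.05 log2, limma adjusted p = 0.0603). The UBE2H call was also lost without overexpression replicate 1, 2 or 3 (limma adjusted p = 0.0736, 0.0802 and 0.0724). Without vector replicate 2 the UBE2H difference was 0.77 log2 (limma adjusted p = 0.00231). UBE2K, which builds Lys48-linked chains without a cullin, had 3.57, 11.40 and 8.95 FPKM against 10.15, 8.65 and 7.32. Vector replicate 1 alone was low, and without it the sign of the UBE2K difference turned, from 0.25 to -0.22 log2.

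UBE2N, or UBC13, builds Lys63-linked chains that serve signalling and DNA repair, and it needs UBE2V1 or UBE2V2, partners that lack the catalytic cysteine. The values of UBE2V2 were 3.60, 3.23 and 7.07 FPKM in the vector and 10.37, 8.56 and 8.50 in the overexpression libraries. The groups did not overlap, with vector replicate 3 nearest to the overexpression libraries. The difference was 0.98 ± 0.27 log2 (SE, limma adjusted p = 0.0215) and 0.77 after centring (limma adjusted p = 0.0497). The UBE2V2 call was lost without vector replicate 1 or 2 or overexpression replicate 1 (limma adjusted p = 0.064, 0.0607 and 0.0683).

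UBE2N itself had the opposite sign, at 9.78, 11.30 and 10.10 FPKM in the vector and 8.47, 5.25 and 9.16 in the overexpression libraries. All overexpression values were below all vector values, that of replicate 2 by the most. The UBE2N difference was -0.46 log2 as deposited (limma adjusted p = 0.10) and -0.66 after centring (limma adjusted p = 0.0334). Without overexpression replicate 2 it was -0.22 log2 as deposited (limma adjusted p = 0.16). Of its 50-base words, 49.4% occur in transcripts of other genes, the highest share among the tested members, so its level is uncertain. The row joining UBE2V1 to TMEM189 rose from 5.09 ± 0.405 to 7.03 ± 0.411 FPKM (SD, n = 3), with a limma adjusted p of 0.0133, but not after centring (limma adjusted p = 0.131).

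Endoplasmic reticulum associated degradation removes misfolded proteins from the secretory pathway. Of its 4 tested enzymes, 2 were higher as deposited, beside 37.4% of all tested rows. After centring 0 were higher and 1 was lower, beside 24.0% and 19.2% of rows. UBE2G1 was higher, at 17.65, 11.55 and 18.66 FPKM in the vector and 27.99, 24.08 and 22.66 in the overexpression libraries (0.65 ± 0.19 log2, SE, limma adjusted p = 0.0263). No overexpression library reached down to the vector group, but the UBE2G1 call did not hold after centring (limma adjusted p = 0.0892). It was also lost without overexpression replicate 1 or 2 (limma adjusted p = 0.0809 and 0.0601). UBE2G1 passed with length and GC content trends removed (0.59 log2, limma adjusted p = 0.0445), but not with level added (0.34 log2, limma adjusted p = 0.19). Its relative UBE2G2 stood at 8.51, 13.62 and 15.55 FPKM against 9.17, 8.55 and 5.33. The UBE2G2 groups overlapped through vector replicate 1. Its difference was -0.67 log2 (limma adjusted p = 0.0807), and it passed as lower after centring (-0.88 log2, limma adjusted p = 0.0367) and without vector replicate 1 (limma adjusted p = 0.0253).

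The membrane-anchored UBE2J1 rose slightly, from 13.7 ± 0.451 to 17.3 ± 1.33 FPKM (SD, n = 3, limma adjusted p = 0.0225). After centring the UBE2J1 difference was 0.11 log2 (limma adjusted p = 0.326), and the call was lost without vector replicate 1 or 3 or overexpression replicate 1 or 3 (limma adjusted p = 0.0534, 0.0538, 0.064 and 0.0717). UBE2J1 passed with length and GC content trends removed (0.28 log2, limma adjusted p = 0.0193), but not with level added (0.08 log2, limma adjusted p = 0.415). UBE2J2 stood at 2.31, 5.91 and 2.61 FPKM against 4.51, 5.13 and 5.16. Only vector replicate 2 was above the overexpression libraries, and without it UBE2J2 passed as higher (0.88 log2, limma adjusted p = 0.00373, against 0.206 with it).

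The RAD6 enzymes UBE2A and UBE2B attach single ubiquitins to histone H2B and to the replication clamp PCNA. As deposited neither passed the limma test, also at an unadjusted p of 0.05. UBE2A had 18.67, 18.94 and 17.68 FPKM in the vector and 16.88, 10.04 and 17.78 in the overexpression libraries. Overexpression replicate 2 was the low value, and without it the UBE2A difference was -0.09 log2. The UBE2A difference was -0.34 log2 as deposited (limma adjusted p = 0.213) and -0.55 after centring (limma adjusted p = 0.0681). With trends on length and GC content removed, and libraries centred, UBE2A passed as lower (-0.63 log2, limma adjusted p = 0.0408). UBE2B stood at 3.19, 6.98 and 6.47 FPKM against 6.02, 6.81 and 5.57, with only vector replicate 1 apart. UBE2T, the E2 of the Fanconi anaemia pathway, had means of 4.33 ± 0.272 and 5.26 ± 0.370 FPKM (SD, n = 3). The UBE2T groups did not overlap, but the limma adjusted p was 0.0835.

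Of the 4 tested atypical E2s, 1 was higher (UBE2Q1) and 1 lower (UBE2U), where 37.4% and 11.9% of all tested rows were. UBE2Q1, which has a long N-terminal extension, was measured at 5.73, 5.68 and 5.31 FPKM in the vector and 10.01, 10.65 and 10.98 in the overexpression libraries. Replicates agreed closely in both groups. The difference was 0.86 ± 0.09 log2 (SE, limma adjusted p = 0.00052), and 0.65 after centring (limma adjusted p = 0.00208). Its paralogue UBE2Q2 did not pass, at 8.93, 7.73 and 10.78 FPKM against 8.44, 10.01 and 8.02, with an interval from -0.39 to 0.30 log2. UBE2O, a large enzyme that joins E2 and E3 functions in 1 protein, had means of 8.53 ± 0.434 and 10.9 ± 1.86 FPKM (SD, n = 3, limma adjusted p = 0.081).

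UBE2U, an enzyme of low level here, stood at 1.09, 1.93 and 1.73 FPKM in the vector and 0.90, 0.34 and 0.63 in the overexpression libraries. Its mean of 1.10 FPKM over the 6 libraries reached the filter of 1 FPKM only through the vector group (means 1.58 and 0.623 FPKM). That UBE2U was tested thus depended on the group in which it was higher. The groups lay apart by little at vector replicate 1 and overexpression replicate 1. The difference was -0.90 ± 0.25 log2 (SE, limma adjusted p = 0.0234), and -1.11 after centring (limma adjusted p = 0.0116). The UBE2U call was lost without vector replicate 2 or 3 or overexpression replicate 2 or 3 (limma adjusted p = 0.0682, 0.0637, 0.0674 and 0.0601).

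Replicates of the family spread more than those of other genes in the vector group. The median coefficient of variation was 22.3% for the tested members against 13.4% for all tested rows in the vector libraries, and 11.35% against 10.2% in the overexpression libraries. The highest vector library exceeded the lowest more than 2-fold for 7 members (UBE2B, UBE2E1, UBE2E3, UBE2H, UBE2J2, UBE2K and UBE2V2). That is 25.0% of the tested members, against 11.1% of all tested rows. In the overexpression libraries this held for UBE2D4, UBE2E1 and UBE2U, 10.7% of the tested members against 6.34% of all tested rows. These counts are descriptions and were not tested.

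The make-up of the family within each library does not depend on a common scaling factor per library. Trends on length, GC content and level were not removed from it. The summed FPKM of the members was 213, 213 and 254 in the vector libraries and 357, 321 and 342 in the overexpression libraries. That is 1.501-fold in the means (exact permutation p = 0.1, two-sided, the smallest that 3 against 3 can give). The whole library sums differed by 1.46-fold, so the share of the family in its library was 0.258% ± 0.0240 against 0.265% ± 0.0138 (SD, n = 3, exact permutation p = 0.8).

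Within that pool the E2s of ubiquitin-like proteins took 12.61%, 13.94% and 12.42% in the vector and 17.39%, 18.93% and 18.16% in the overexpression libraries. UBE2L6 alone held 4.11% ± 0.566 and 8.12% ± 0.464 (SD, n = 3). UBE2L3 moved from 5.46% ± 1.97 to 9.80% ± 0.935. The 4 chain-elongating and CTLH genes together went from 12.7% ± 1.39 to 17.04% ± 1.41 (SD, n = 3). The RAD6 pair took 10.65% ± 1.36 against 6.16% ± 0.823, the degradation enzymes of the endoplasmic reticulum 20.3% ± 0.858 against 16.1% ± 1.17, and the 3 UBE2D genes 6.05% ± 0.248 against 4.78% ± 0.710 (SD, n = 3). The UBE2E share was nearly equal in the means, 12.1% ± 3.98 against 12.3% ± 3.66. The groups of libraries did not overlap for any role named here except UBE2E (exact permutation p = 0.1 each, the smallest possible). Shares within a pool are tied to each other, so a larger share of some genes lowers that of the rest.

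**Figure D3:**
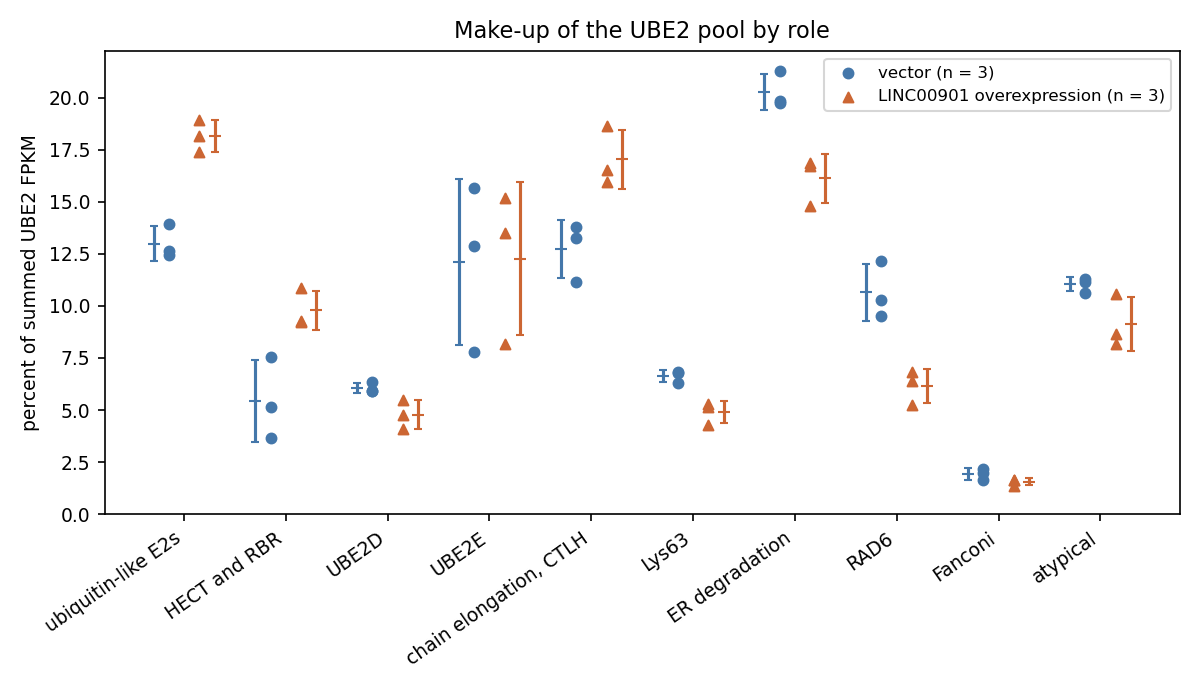
Percent of the summed FPKM of the 31 UBE2 genes held by each role in each library (circles vector, triangles LINC00901 overexpression), with mean ± SD bars. E2s of ubiquitin-like proteins take 12.42% to 13.94% in the vector and 17.39% to 18.93% in the overexpression libraries, while the RAD6 and endoplasmic reticulum roles take less.

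Ratios between related genes in the same library are likewise free of a common scaling factor, apart from the effect of the added 0.5. Trends on length, GC content and level were not removed from them either. Of 11 pairs chosen, 7 could be computed from rows with a single name. The UBE2G2 to UBE2G1 log2 ratio was -1.01, 0.23 and -0.26 in the vector and -1.56, -1.44 and -1.99 in the overexpression libraries. The balance thus stood further toward UBE2G1 in every overexpression library, by 1.32 log2 in the means (-0.35 against -1.66). The UBE2Q1 to UBE2Q2 ratio went the other way, from -0.60, -0.41 and -0.96 to 0.23, 0.09 and 0.43. UBE2Q1 was thus the lower of the pair in all vector libraries and the higher in all overexpression libraries. The UBE2R2 to CDC34 ratio was -0.65, 0.16 and -0.02 against 0.85, 0.77 and 0.46, with CDC34 itself at 8.28, 6.20 and 6.94 FPKM against 7.96, 8.46 and 10.23. Each of these 3 ratios had an exact permutation p of 0.1, the smallest possible here, and 0.233 adjusted over the 7 pairs, so this test cannot carry them past a threshold.

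The UBE2L6 to UBE2L3 ratio did not differ detectably, at -0.34 ± 0.68 against -0.26 ± 0.08 log2 (SD, n = 3, exact permutation p = 0.9). Both genes of this pair rose together. For UBE2A to UBE2B, UBE2E1 to UBE2E3 and UBE2J2 to UBE2J1 the groups overlapped, with exact permutation p of 0.6, 0.6 and 0.7.

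**Figure D4:**
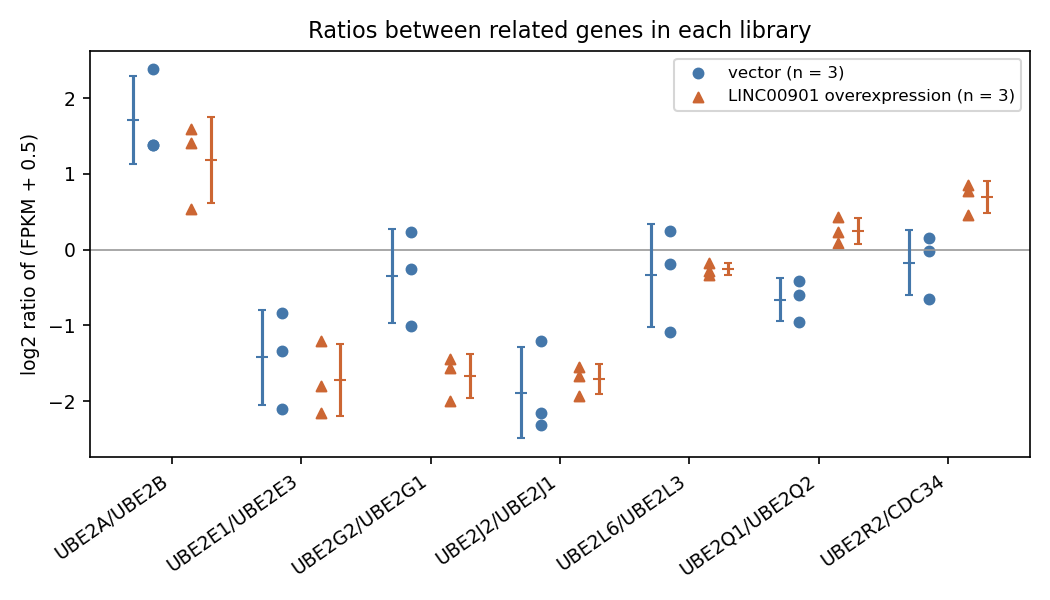
Log2 ratio of (FPKM + 0.5) between 2 related genes in each library (circles vector, triangles LINC00901 overexpression), with mean ± SD bars; values above 0 mean that the first gene is higher. The groups lie apart for UBE2G2/UBE2G1, UBE2Q1/UBE2Q2 and UBE2R2/CDC34 and overlap for the other 4 pairs.

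Promoter sequence was available in RefSeq (GRCh38.p14) for 24 of the 31 genes, as windows from 250 bases before to 50 after each start. Motifs were searched on both strands. The interferon-stimulated response element core (GAAA, any 2 bases, GAAA) occurs in 3.57% of all 35116 windows and in those of 1 member, UBE2D3, whose level was nearly equal in both groups. No match was found for UBE2L6, an interferon-inducible gene. Which 24 genes had windows is not listed here, and sites elsewhere were not searched. The cAMP response element TGACGTCA, bound by CREB and ATF factors, occurs in 1.85% of windows and in that of 1 member, UBE2S, which rose. The AP-1 motif TGANTCA, the E-box CACGTG and the EGR motif GCGTGGGCG occur in 7.71%, 7.26% and 0.795% of windows and in those of 0 members. The cell cycle motif TTTGAA occurs in 15.2% of windows and in those of UBE2T and UBE2U. The stretches with the first 2 motifs are shown because they set a gene that did not pass the test beside a gene that rose, with the motif in capitals.
UBE2D3: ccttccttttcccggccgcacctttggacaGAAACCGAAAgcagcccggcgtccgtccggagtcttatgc
UBE2S: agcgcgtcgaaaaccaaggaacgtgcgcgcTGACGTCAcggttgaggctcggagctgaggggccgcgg

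The UBE2D3 stretch is chr4:102826999-102827068 and the UBE2S stretch chr19:55407839-55407906, both on the minus strand. Both lie upstream of the annotated start. A match is a description of letters and not of a bound site.

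Other genes of the pathway were taken from lists of E1s, modifiers, further E2s and E3s. Their counts are read beside the 37.4% of all tested rows called higher and 11.9% called lower as deposited, and 24.0% and 19.2% after centring. Of 9 tested E1 genes, 3 were higher and 1 lower, close to that background, and after centring 2 and 2. UBA1, the main ubiquitin E1, stood at 107 ± 3.78 against 191 ± 10.8 FPKM (SD, n = 3; 0.83 log2, limma adjusted p = 0.000194). UBA2, a subunit of the SUMO E1, rose by 0.50 log2. With length and GC content trends removed, UBA1 differed by 0.53 log2 and UBA2 by 0.37, and both passed (limma adjusted p = 0.000936 and 0.0146). With a trend on level removed too, they differed by 0.02 and 0.12 log2, and neither passed (limma adjusted p = 0.814 and 0.287). UBA7, the E1 of ISG15, was below the filter, with at most 0.43 FPKM in any library.

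Of 9 tested ubiquitin and ubiquitin-like genes, 4 were higher and 0 lower under both scalings in the limma fit. As deposited all 9 fitted differences were above 0, but after centring those of UBB and URM1 were below it (-0.07 and -0.15 log2). ISG15, the modifier that UBE2L6 carries, stood at 6.14 ± 0.494 against 26.9 ± 0.513 FPKM (SD, n = 3). RPS27A, a fusion gene that encodes ubiquitin and a ribosomal protein, rose by 1.59 log2, and SUMO3 rose by 0.81. With length and GC content trends removed SUMO3 still passed (0.43 log2, limma adjusted p = 0.0163). With a trend on level removed too SUMO3 no longer passed (0.20 log2, limma adjusted p = 0.168), while ISG15 and RPS27A did (1.09 and 0.86 log2, limma adjusted p = 0.000724 and 0.00198). The polyubiquitin gene UBB did not pass (limma adjusted p = 0.719). Of 7 E2 genes with other names, 3 were higher and 1 lower, and after centring 1 and 1. UFC1, the E2 of UFM1, was uneven in the vector libraries, at 0.69, 2.82 and 3.19 FPKM against 9.28, 6.56 and 7.14 (limma adjusted p = 0.0142). BIRC6, a very large E2 and apoptosis inhibitor, fell from 24.2 ± 0.512 to 18.4 ± 1.40 FPKM (SD, n = 3). With trends on length and GC content removed, UFC1 and BIRC6 did not pass (limma adjusted p = 0.0604 and 0.0509). With a trend on level removed too, both passed (1.34 and -0.50 log2, limma adjusted p = 0.0493 and 0.00249).

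Of 38 tested E3 ligases known to act with these E2s, 9 were higher and 9 lower, with a median of -0.06 log2, and after centring 4 were higher and 13 lower. XIAP, a RING ligase that blocks caspases, had 9.35, 9.43 and 10.09 FPKM against 5.28, 2.94 and 2.01 (-1.46 log2, limma adjusted p = 0.00567). RNF20, the H2B ligase that works with UBE2A and UBE2B, rose from 9.66 ± 0.843 to 19.1 ± 0.205 FPKM (SD, n = 3), while those E2s did not. The SUMO ligase PIAS4 and the chaperone-associated ligase STUB1 rose by 0.83 and 0.76 log2. With trends on length and GC content removed STUB1 no longer passed (0.13 log2, limma adjusted p = 0.606), while PIAS4 did (0.44 log2, limma adjusted p = 0.0215). HERC5, the ISG15 ligase, is named after its values were seen. It lay below the filter, with 0.00, 0.00 and 0.03 FPKM in the vector group against 1.17, 1.19 and 1.30.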

How the data were processed

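Per the file headers, the authors deposited FPKM values (fragments scaled to gene length and library total) for each gene and library. The submitters' processing notes name cutadapt, FastQC, HISAT2 and build hg19. Tool versions, and the tool that made the FPKM, are not given in the sources used. The depth is unknown, so no count model or counting interval was used.

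Values were taken as log2(FPKM + 0.5). The 9694 rows with a mean of at least 1 FPKM were compared with limma 3.58.1 (R 4.3.3, intensity trend, no block, two-sided), with Benjamini-Hochberg adjustment over all of them and a threshold of 0.05. Changes of low genes are understated by this scale. The fit was tested on simulated data. Shares and ratios were compared with exact permutation tests. Length, GC content and shared 50-base words came from GENCODE 29, matched by symbol (91.1% of tested rows and all 28 tested members for length), and promoters from RefSeq. Counting settings are likewise not given, so reads shared with copies or antisense genes may be split.

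Members and lists were chosen with earlier results of these data known. Values in each library are given for members that passed under both scalings, both genes of pairs whose ratio moved by at least 0.5 log2, and the 3 highest; values shown for further members, such as UBE2H, UBE2K and UBE2N, were chosen after they were seen. From each other list, up to 4 genes that passed under both scalings are named, by size of change. Alternatives were other pseudocounts, filters, scalings and variance settings, a block, and leaving out each library. Removing trends on length, GC content and level was added after seeing the data. The fits with these trends removed also used median-centred libraries. Some genes, family genes among them, are not reported here by name.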

Additional observations from a re-analysis of the deposited data

How the results depend on the processing

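The 9 members higher under both scalings kept their direction in all settings in which they were tested. UBE2L3, UBE2L6, UBE2Q1, UBE2R2 and UBE2S were tested in every setting and passed in each. UBE2D1 was not tested at a mean of at least 5 FPKM and passed in all other settings. The number of members higher was 12 as deposited and 8 to 12 when libraries were left out in turn. It was 11 with length and GC trends removed and 8 when level was added. The number lower was 1 as deposited, 0 to 2 when libraries were left out, 0 with a mean of at least 5 FPKM, 4 with median centring or the length and GC correction, and 5 with quantile normalization or level added. Over all tested rows, 3621 were higher and 1152 lower as deposited. With a mean of at least 5 FPKM they were 2396 and 422, where fewer rows were tested. With median centring they were 2331 and 1866, with quantile normalization 1865 and 2024, with length and GC removed 2015 and 1535, and with level added 1591 and 1617. When libraries were left out they ranged from 2768 to 3371 higher and from 812 to 1004 lower.

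The replicate number as a block gave 12 members higher and 0 lower (14 in either direction at an unadjusted limma p of 0.05), and 3262 and 965 of all rows. UBE2U and UBE2J1 lost their calls (limma adjusted p = 0.0587 and 0.0605) and UBE2E3 gained 1 (0.0154). Same-numbered libraries did not deviate together over all tested rows (correlation of deviations -0.037, -0.00574 and -0.00503 for numbers 1, 2 and 3). Such a correlation cannot exclude a pairing or batch that touches some genes. The labels give only a replicate number. A paired sign-flip of the 7 ratios cannot go below 0.25 and left their means as they were (UBE2G2/UBE2G1 -1.32, UBE2Q1/UBE2Q2 0.91, UBE2R2/CDC34 0.86).

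Signs turned only for members that had not passed, and for UBE2J1 with quantile normalization (-0.10 log2). UBE2B was -0.01 with median centring, -0.03 with quantile normalization and ranged from -0.13 (without vector replicate 1) to 0.38 when libraries were left out. UBE2D3 was -0.16, -0.25 and, with length, GC and level removed, -0.08. UBE2K was -0.04 with quantile normalization and ranged from -0.22 (without vector replicate 1) to 0.56. UBE2O was -0.16 with level removed, UBE2T -0.26 with length and GC and -0.13 with level removed, and UBE2Q2 0.08 and 0.02 without vector or overexpression replicate 3, within a range from -0.15 to 0.08. The cause was not tested. The log2 ratio of the family's summed FPKM, 0.59, became 0.04 as a share of the library sum. Without single libraries the pair ratios ranged from -1.65 to -1.03 (UBE2G2/UBE2G1), 0.76 to 1.03 (UBE2Q1/UBE2Q2), 0.62 to 1.03 (UBE2R2/CDC34), -0.29 to 0.37 (UBE2L6/UBE2L3), -0.03 to 0.53 (UBE2J2/UBE2J1), -0.74 to -0.20 (UBE2A/UBE2B) and -0.63 to -0.01 (UBE2E1/UBE2E3). The 4 pairs with UBE2D2, UBE2V1 or UBE2F were not run, since these genes have joined rows. Precision is limited by 3 libraries a group and by unknown depth.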
